A study of Homo sapiens with 18 samples.

Results

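What piroxicam adds to cisplatin at 24 h was measured in MSTO-211H, a long-established line grown from a human malignant mesothelioma, by setting the arrays titled piroxicam/cisplatin (P/C) against those titled cisplatin (C). The comparison holds all 5 arrays with these titles at 24 h, 2 of P/C and 3 of C, out of the 18 arrays of the series, and every probe set was followed. C cells were given 4.5 µg/mL cisplatin and P/C cells the same dose together with 760 µM piroxicam, both for 24 h, so piroxicam is what differs between the groups and cisplatin is what they share. The other arrays used below are 2 of untreated cells and 3 of cells given 760 µM piroxicam alone (P) at 24 h, and 2 of C and 2 of P/C at 8 h. All are 1 cell line at 1 dose of each drug. The study describes its replicates as biological, and they carry the numbers 1 to 3 for C and 1 and 3 for P/C.

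Piroxicam belongs to the non-steroidal anti-inflammatory drugs and blocks the cyclo-oxygenases PTGS1 and PTGS2. Cisplatin binds DNA, and the lesions it leaves stall replication and set off the p53 response, whose best known target is CDKN1A, the cyclin-dependent kinase inhibitor p21. When p21 holds the kinases back, the repressor complex DREAM silences genes of DNA replication through E2F sites and genes of mitosis through a motif called CHR, which often lies close to CCAAT boxes bound by NF-Y.

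Of 22283 probe sets on the HGU133A array, 3057 varied and were bright enough to be tested, and they stand for 2203 genes with a symbol of their own. Levels are given on the deposited log2 scale, where a signal of 100 is 6.64. The cells were checked against markers. VIM, KRT18 and KRT8, a mesenchymal and a pair of epithelial filament proteins, were above a signal of 100 on all 5 arrays. The other 13 of 16 measured mesothelial markers, among them WT1 and CALB2, were below 100 on all 5, so the mesothelial origin in the label has no more than these filament genes behind it here. All 15 measured leukocyte and erythroid markers and all 15 stromal and endothelial markers were also below 100 on the 5 arrays.

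A pair of the 5 arrays showed little of a change seen on other arrays given the same drug. On the array labelled C replicate 1, the median of 14 tested p53 target genes lay 0.22 above the untreated mean, against 1.28 and 1.60 on C replicates 2 and 3, and 0.17 above and below it on the untreated arrays themselves. On the array labelled P/C replicate 1, the 96 probe sets that P alone raised over untreated cells lay at a median of 0.28 above the C mean, and on P/C replicate 3 at 1.04, while the C arrays lay at -0.03, -0.14 and 0.20. The 349 probe sets that P alone lowered lay at -0.12 and -0.81 on the same P/C arrays and at 0.15, -0.06 and -0.07 on the C arrays. So P/C replicate 3 carried the changes seen with piroxicam alone and P/C replicate 1 carried little of them. Over the tested probe sets, P/C replicate 1 correlated at 0.96 with C replicate 3 and at 0.86 with P/C replicate 3. P/C replicate 3 correlated at 0.82, 0.83 and 0.86 with C replicates 1, 2 and 3. The p53 targets lay 1.64 above the untreated mean on P/C replicate 1 and 1.46 on replicate 3. With 2 P/C arrays, it cannot be told which is typical of the combination. Results are therefore given with C replicate 1 and P/C replicate 1 and without them. P/C replicate 1 was doubted for carrying little of the change seen with P, so larger differences without it follow in part from that choice and are given as a description. Without P/C replicate 1, 1 P/C array stands against 3 C arrays, and without both doubted arrays against 2. In any fit with 1 P/C array, that array is assumed to vary like the other groups. Counts of calls from such fits hold no spread between P/C arrays.

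With all 5 arrays, 3 probe sets of 3057 passed the test, 0.0981%, and all 3 were lower in P/C: BIRC5, SUB1 and GINS2. BIRC5, called survivin, is a subunit of the chromosomal passenger complex of mitosis and an inhibitor of apoptosis. SUB1 is a transcriptional coactivator that binds single-stranded DNA, and GINS2 is a subunit of the GINS complex of the replicative helicase. None was higher at that threshold. At an unadjusted p under 0.05 there were 196 probe sets higher (6.41%) and 257 lower (8.41%), and the smallest adjusted p was 0.0439. Without P/C replicate 1, 193 probe sets passed (6.31%), 69 higher (2.26%) and 124 lower (4.06%). Without both doubted arrays 251 passed (8.21%), 124 higher (4.06%) and 127 lower (4.15%).

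BIRC5 read 8.41, 7.94 and 7.91 on the C arrays and 7.02 and 5.54 on P/C replicates 1 and 3. Both P/C arrays were below all C arrays, replicate 3 by far the more, and the fitted log2 fold change was -1.81 ± 0.31 (SE, adjusted p = 0.0439). Another BIRC5 probe set, too dim to be tested, read 5.33, 4.96 and 4.66 in C and 3.72 and 2.18 in P/C. The last one, also dim, overlapped between the groups. With P alone BIRC5 was also called lower, at -1.51 ± 0.31 against untreated cells.

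SUB1 read 6.85, 6.32 and 6.44 in C and 5.02 and 2.88 in P/C, and the fitted difference was -2.58 ± 0.45 on the log2 scale (adjusted p = 0.0439). The groups did not overlap on this probe set. The brighter SUB1 probe sets, 2 in number, differed far less: on one, C read 9.68, 9.68 and 9.59 and P/C 9.15 and 9.26, and on the other, C read 9.67, 9.29 and 9.07 and P/C 9.28 and 8.79. The fold change of SUB1 therefore depends on which probe set is read.

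GINS2 read 7.17, 6.81 and 6.38 in C and 5.21 and 3.98 in P/C, with a log2 difference of -2.20 ± 0.40 (adjusted p = 0.0491). All 3 calls were lost when any C array or P/C replicate 3 was left out, with no call made in those 4 fits. They were also lost without the filter on low values, with array weights, and when the fit held only the 24 h arrays or only these 5. Without P/C replicate 1 the log2 differences were -2.55 for BIRC5, -3.66 for SUB1 and -2.81 for GINS2, each from 1 P/C array.

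The probe sets next in line for lower values in P/C, none of which passed, mixed growth and cell cycle genes with others. ITGAE, integrin alpha E, read 8.50, 8.51 and 8.35 in C and 7.47 and 7.59 in P/C, a log2 difference of -0.92 ± 0.18 (adjusted p = 0.0558). HOXB7, a homeobox transcription factor, read 6.98, 6.89 and 7.07 against 6.12 and 5.85, a difference of -1.0 ± 0.19 (adjusted p = 0.0558), while its brighter tested probe set differed by -0.26. In these genes the P/C arrays lay close together, so P/C replicate 1 was as far from C as replicate 3 or nearly so. The same held for HMMR, a hyaluronan-binding protein of the mitotic spindle, at 7.96, 7.92 and 8.10 in C and 7.34 and 7.02 in P/C, and for HSPA14, an HSP70 relative, at 8.34, 7.75 and 7.39 in C and 6.69 and 6.66 in P/C.

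PHLDA2, an imprinted growth regulator, read 9.21, 9.06 and 8.83 in C and 8.07 and 7.76 in P/C. In PSMD12, a lid subunit of the proteasome, the P/C arrays stood further apart, with 6.96, 6.37 and 6.49 in C and 5.81 and 4.44 in P/C. The brighter PSMD12 probe set overlapped between the groups, at 9.43, 8.76 and 8.81 in C and 8.88 and 8.95 in P/C (-0.086 ± 0.23), so the change of this gene depends on the probe set as it does for SUB1. FST, follistatin, which binds activin, read 7.43, 7.18 and 6.91 in C and 6.17 and 4.84 in P/C. DCTPP1, a nucleotide pyrophosphatase that cleans the dCTP pool, read 7.0, 7.09 and 6.89 against 6.11 and 4.88. On these probe sets of PSMD12, FST and DCTPP1 the drop on P/C replicate 3 was more than 1 log2 unit larger than on replicate 1. Without replicate 1 their log2 differences were -2.16, -2.33 and -2.12.

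No gene passed as higher in P/C. The 12 with the smallest p among those with P/C above all C arrays had log2 differences from 0.77 in TFE3 to 1.68 in ZBTB38 and adjusted p from 0.124 to 0.147. ZBTB38, a methyl-CpG binding zinc finger protein, read 6.31, 6.94 and 7.74 in C and 8.78 and 8.58 in P/C. TMEM43, an inner nuclear membrane protein, read 5.67, 6.24 and 6.67 in C and 7.34 and 7.5 in P/C. In both genes the P/C arrays lay close together. ZDHHC7, a palmitoyltransferase, read 7.33, 7.01 and 7.58 against 8.28 and 8.23, and KPNA3, an importin alpha, 6.85, 6.63 and 6.85 against 7.67 and 7.5 on the dimmer of its tested probe sets, with a log2 difference of 0.81 there and 0.33 on the brighter one. With P alone ZDHHC7 and KPNA3 differed from untreated cells by 0.13 and -0.34.

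RAD50, a subunit of the MRN complex that senses DNA breaks, read 6.20, 6.28 and 6.54 in C and 7.01 and 8.12 in P/C. RYBP, a Polycomb protein, read 5.00, 5.41 and 5.63 against 6.08 and 7.36. SLC6A15, a neutral amino acid transporter, read 6.16, 6.87 and 6.24 against 7.06 and 8.21, and PREPL, a serine hydrolase, 6.14, 6.31 and 6.92 against 7.19 and 8.06. In these 4, replicate 3 was about 1 log2 unit above replicate 1. Without replicate 1 the log2 differences were 1.78 for RAD50, 2.02 for RYBP, 1.78 for SLC6A15 and 1.61 for PREPL. The brighter tested PREPL probe sets overlapped between the groups and differed by 0.32 and 0.21, against 1.17 on the one given. APLP2 varied likewise, with a log2 difference of 1.21 on the probe set chosen and 0.50 and 0.38 on its brighter ones. The remaining ones were APLP2, GATAD1, ZNF23 and TFE3, a transcription factor of lysosome genes that read 6.48, 6.49 and 6.60 in C and 7.10 and 7.48 in P/C.

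**Figure D1:**
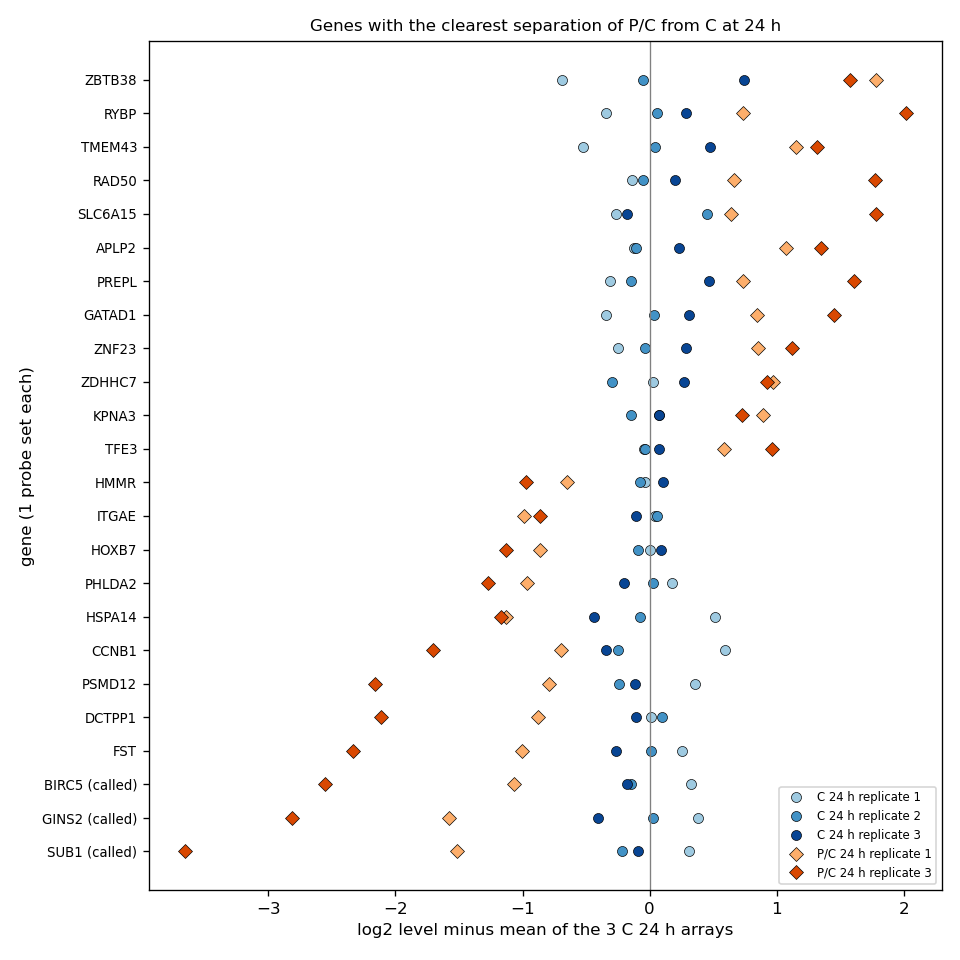
Each row is 1 probe set of a named gene, and the horizontal axis is its log2 level minus the mean of the 3 C arrays at 24 h. Circles are the 3 C arrays and diamonds the 2 P/C arrays. BIRC5, GINS2 and SUB1 passed the test, and for many genes P/C replicate 3 (dark diamonds) lies well beyond replicate 1, while for ITGAE, HOXB7, HSPA14 and ZDHHC7 they lie together.

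Genes of mitosis were lower in P/C as a group, far more on replicate 3 than on replicate 1. All 42 tested of 65 listed had a negative log2 difference, with a median of -0.61, against -0.004 over all 2203 tested genes, of which 1116 were negative. Of the 42, 1 was called (BIRC5) and 19 had both P/C arrays below all C arrays, where 14.4% of tested genes did. The array labelled P/C replicate 1 was below all C arrays for 20 of the 42 (29.0% of all tested probe sets) and replicate 3 for 41 (32.2%). Without P/C replicate 1 the median was -1.11. Of the 42, 23 were called lower with P alone, where 231 of all 2203 tested genes were. The larger difference without that array thus follows in part from the reason it was doubted. In RNA of whole cultures, fewer cells passing through mitosis and less of these RNAs per cell cannot be told apart.

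CCNA2, cyclin A2 of S phase and early mitosis, read 8.85, 7.67 and 6.85 in C and 7.01 and 5.14 in P/C, so that P/C replicate 1 lay among the C arrays (log2 difference -1.72 ± 0.50, adjusted p = 0.151). CCNB1, cyclin B1, the partner of CDK1 at entry to mitosis, read 9.68, 8.84 and 8.74 in C and 8.39 and 7.38 in P/C (-1.20 ± 0.29, adjusted p = 0.124). KIF14, a kinesin of cytokinesis, read 6.44, 5.93 and 5.67 in C and 4.93 and 4.37 in P/C (-1.37 ± 0.40, adjusted p = 0.151). In CCNA2, CCNB1 and KIF14 the array labelled C replicate 1 was the highest of the C arrays. Mitosis genes stood at a median of 0.25 above the C mean on that array and at -0.12 and -0.10 on the other C arrays. On P/C replicate 1 they stood at -0.22 and on P/C replicate 3 at -1.11. With both doubted arrays left out the median was -0.89.

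Genes of DNA replication were also lowest on P/C replicate 3, with P/C replicate 1 next, but by median C replicate 1 did not stand out. Of 30 tested of 56 listed, 27 were lower and 3 higher, the median log2 difference was -0.43, GINS2 was called and 11 had both P/C arrays below all C arrays (14.4% of tested genes did). By this list's median the C arrays lay at 0.02, 0.02 and 0.01 from their mean, P/C replicate 1 at -0.19 and replicate 3 at -0.94. CDC6, which loads the MCM helicase, read 5.69, 6.58 and 6.66 in C, 6.24 on P/C replicate 1 and 3.57 on replicate 3. GINS1, a partner of GINS2 in its complex, read 7.14, 7.18 and 7.45 in C, then 7.12 and 4.99. FEN1, the flap endonuclease that trims Okazaki fragments, read 8.24, 8.17 and 8.17 in C, then 7.85 and 6.24. CDC6, GINS1 and FEN1 were among the 18 of the 30 called lower with P alone, where 231 of all 2203 tested genes were. Calls made in this list without P/C replicate 1 thus follow in part from the reason it was doubted, and are no separate evidence. In these 3 genes replicate 1 was at or near the C level and replicate 3 far below it. None passed with all arrays, at adjusted p of 0.225, 0.210 and 0.190, and all 3 were among the 12 of the list called lower without P/C replicate 1 (3.27% of tested genes).

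**Figure D2:**
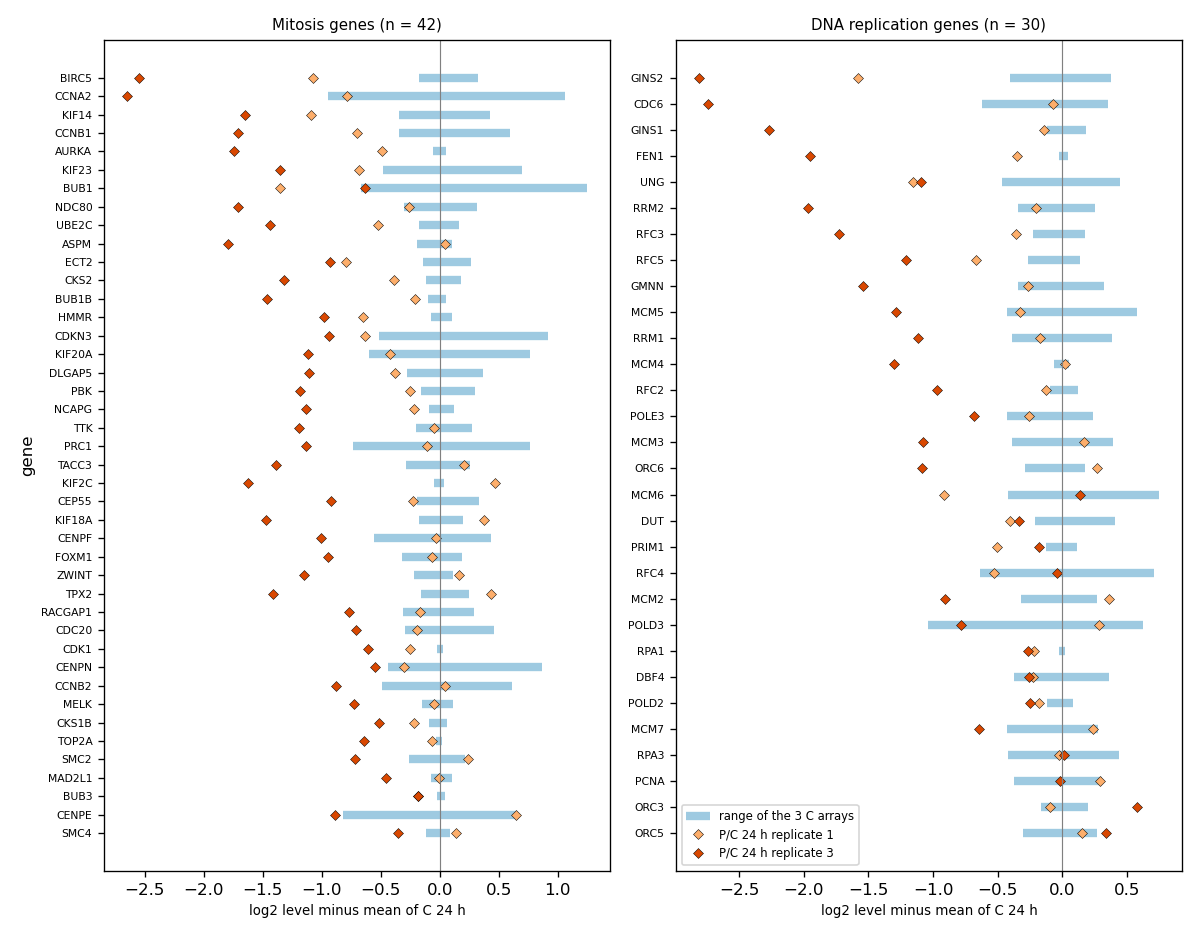
Log2 level minus the mean of the 3 C arrays (horizontal axis) for each of the 42 tested mitosis genes and 30 tested DNA replication genes (rows). Blue bars span the 3 C arrays and diamonds are the P/C arrays. On replicate 3, 41 mitosis genes and 22 replication genes lie below all C arrays, and on replicate 1, 20 and 12 do.

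The promoters of these groups were read from RefSeq (GRCh38.p14), from 250 bases before to 50 after each start. Shown are 3 with at least 1 of the motifs below, from genes whose P/C arrays were both below all C arrays. Capitals mark CCAAT (or its reverse complement ATTGG), the CHR motif TTTGAA, and any of the E2F words TTTCCCGC, TTTCGCGC, TTTGCCGC and TTTGGCGC, on either strand. The 250 bases before the start are printed, 5′ to 3′ along the gene, for GINS2 (chr16:85688955-85689204, minus strand), HMMR (chr5:163460382-163460631, plus strand) and CCNB1 (chr5:69166900-69167149, plus strand).
GINS2: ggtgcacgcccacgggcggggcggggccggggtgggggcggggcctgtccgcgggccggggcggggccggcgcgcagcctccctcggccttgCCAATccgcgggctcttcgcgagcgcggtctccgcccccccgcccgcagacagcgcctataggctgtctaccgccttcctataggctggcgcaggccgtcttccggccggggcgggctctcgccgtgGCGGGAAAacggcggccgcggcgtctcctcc
HMMR: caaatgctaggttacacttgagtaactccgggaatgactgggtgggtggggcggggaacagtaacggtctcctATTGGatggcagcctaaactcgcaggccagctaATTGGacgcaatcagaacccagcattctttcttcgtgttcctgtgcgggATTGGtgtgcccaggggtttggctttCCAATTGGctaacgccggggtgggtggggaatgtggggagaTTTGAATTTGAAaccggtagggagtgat
CCNB1: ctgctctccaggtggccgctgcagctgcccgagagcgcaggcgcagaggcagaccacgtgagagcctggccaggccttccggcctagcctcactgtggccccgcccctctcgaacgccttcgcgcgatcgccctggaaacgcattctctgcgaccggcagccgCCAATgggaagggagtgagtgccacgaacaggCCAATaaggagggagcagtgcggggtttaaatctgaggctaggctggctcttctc

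The GINS2 window holds 1 CCAAT box at -158 and 1 E2F word at -31, counted from the start site. HMMR holds CCAAT boxes from -177 to -66 and the CHR word at -28 and again at -22. CCNB1 holds CCAAT boxes at -87 and -55 and neither of the other motifs. A window was matched for 33 of the 42 tested mitosis genes, and BIRC5 and SUB1 were not matched. Of the 33, 25 held the CHR word (75.8%), against 15.8% of 1900 matched tested genes and 18.2% of all 27305 genes with a window, and 24 held CCAAT (72.7%), against 45.8% and 39.7%. Of 26 matched replication genes, 13 held an E2F word, against 8.11% of the tested genes and 3.99% of all genes, and 5 held the CHR word (19.2%). These are matches of letters in a window and not measured binding. The shares describe the gene lists and not genes picked as lower in P/C. A role of these motifs in the difference between P/C and C was not tested.

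Genes of the amino acid response and the integrated stress response, which ATF4 drives when translation initiation is held back, were higher in P/C without any passing the test. All 15 tested of 28 listed had a positive log2 difference, with a median of 0.48. The list lay at 0.21, -0.17 and 0.01 on the C arrays, 0.10 on P/C replicate 1 and 0.83 on replicate 3, and on replicate 3 it had 14 of 15 above all C arrays (33.8% of all tested probe sets) against 4 on replicate 1 (24.7%). TRIB3, a pseudokinase induced by ATF4, read 8.36, 7.12 and 7.22 in C, 7.15 on P/C replicate 1 and 9.42 on replicate 3. XPOT, the tRNA exporter, read 9.43, 9.20 and 9.68, then 9.64 and 10.78. CEBPG, a partner of ATF4, read 6.40, 6.43 and 6.67, then 6.72 and 7.76. These 3 were among the 5 called higher without P/C replicate 1 (2.45% of tested genes), at log2 differences of 1.85, 1.34 and 1.26. Without both doubted arrays 7 of the 15 were called higher (4.58% of tested genes) and 1, ATF3, lower (3.45%). ATF3, a stress-induced transcription factor and also a p53 target, read 5.09, 9.27 and 9.18 in C and 9.52 and 7.79 in P/C. Its log2 difference was 0.81 ± 0.87 with all arrays and -1.43 without both doubted arrays. Of the 15 genes, 10 were called higher with P alone, where 72 of all 2203 tested genes were. TRIB3, XPOT and CEBPG were among the 10. The higher calls made without P/C replicate 1 thus follow in part from the reason it was doubted, and are no separate evidence for this list.

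Other amino acid genes overlapped between the groups in part. PHGDH, the first enzyme of serine synthesis, read 7.26, 6.69 and 6.94 in C, then 6.90 and 8.60, and PSAT1, the next enzyme, 9.17, 8.92 and 9.18, then 8.84 and 10.04. The 6 tested serine and one-carbon enzymes had a median log2 difference of 0.19 and the 7 tested aminoacyl-tRNA synthetases 0.29, with no call. EPRS1, the glutamyl-prolyl-tRNA synthetase, read 8.89, 8.58 and 8.79 in C and 8.95 and 9.74 in P/C. In the 7 tested genes of the unfolded protein response the median was 0.13, with SEL1L, a subunit of the ER degradation complex, at 6.84, 6.57 and 7.01 in C, then 7.0 and 8.32, and MANF, a secreted ER stress protein, at 7.35, 7.69 and 7.01, then 6.36 and 6.29. The members of that list thus did not share a direction.

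Sterol and fatty acid synthesis genes were lower in all 7 tested of 27 listed, with a median log2 difference of -0.44 and no call. The list lay at 0.01, -0.002 and 0.02 from the C mean on the C arrays, at 0.11 on P/C replicate 1 and at -0.85 on replicate 3, where all 7 were below all C arrays (32.2% of all tested probe sets were). Without both doubted arrays the median was -0.62. IDI1, isopentenyl diphosphate isomerase, read 8.15, 8.83 and 8.69 in C, 8.74 on replicate 1 and 6.28 on replicate 3. MSMO1, a sterol demethylase, differed by less and on both arrays, with 8.22, 8.27 and 8.13 in C and 7.68 and 7.68 in P/C (-0.53 ± 0.19, adjusted p = 0.203).

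In CXCL3 and PLAT, from the chemokine and matrix lists, the P/C arrays lay more than 3 log2 units apart, while other members of these lists differed by less between them. CXCL3, a neutrophil chemokine, read 7.32, 6.69 and 6.36 in C, 6.47 on P/C replicate 1 and 9.58 on replicate 3, and its neighbour CXCL2 10.04, 9.50 and 9.76, then 9.92 and 11. The 8 tested genes of the chemokine list had a median of 0.12 with all arrays and -0.26 without P/C replicate 1. PLAT, tissue plasminogen activator, read 8.30, 7.37 and 6.76 in C, 7.33 on replicate 1 and 3.98 on replicate 3. LAMB1, a laminin chain of the same list, was 8.30, 8.01 and 8.39 in C and 8.67 and 9.24 in P/C. The matrix list had 12 tested genes and a median of 0.19.

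The p53 targets depended on the array labelled C replicate 1. Their median log2 difference was 0.52 over 14 tested genes, 11 positive and 3 negative, with none called, and it was 0.08 without both doubted arrays. CDKN1A read 8.66, 10.71 and 11.46 in C and 11.30 and 10.76 in P/C, with the untreated arrays at 8.72 and 8.20 and P at a mean of 9.66. The P/C arrays thus lay within the range of C replicates 2 and 3. The log2 difference was 0.75 ± 0.52 (adjusted p = 0.521) with all arrays, -0.06 without C replicate 1 and -0.33 without both. XPC, a damage sensor of nucleotide excision repair and also a p53 target, did not overlap, with 6.31, 7.38 and 7.62 in C and 8.00 and 8.23 in P/C (1.02 ± 0.29, adjusted p = 0.147). For TXNIP, a redox protein induced by glucose, C replicate 1 also stood alone, at 7.26 against 9.42 and 9.48, with P/C at 9.60 and 9.03. Of the 11 tested genes of the insulin and nutrient-stress list that holds TXNIP, 10 were positive (median 0.23), among them BTG1, an antiproliferative gene, at 8.66, 9.36 and 9.76 in C and 10.17 and 10.19 in P/C, and IRS2, an insulin receptor substrate, at 5.85, 5.11 and 5.28, then 5.01 and 7.27.

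**Figure D3:**
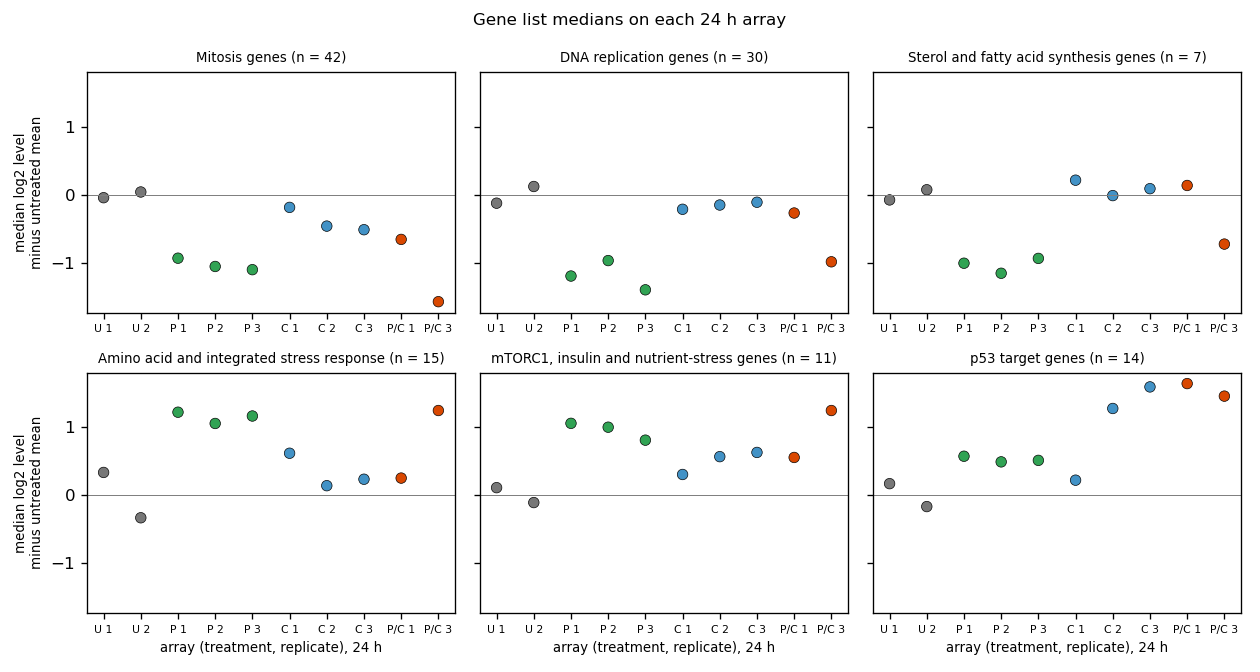
Median log2 level of the tested members of 6 gene lists on each 24 h array, minus the mean of the untreated arrays (vertical axis). U is untreated, P piroxicam, C cisplatin and P/C both drugs, with the replicate number. P/C replicate 3 lies closer to the P arrays than to the C arrays, or beyond the P arrays, in 5 of the lists, and for the p53 targets at 1.46, within the range of C replicates 2 and 3. P/C replicate 1 lies close to C arrays in all 6, and C replicate 1 lies at 0.22 for the p53 targets.

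Of the tested members of the lists of death receptors and caspases and of the BCL2 family, none passed. AIFM1, a mitochondrial flavoprotein released in cell death, read 7.60, 7.60 and 7.56 in C and 6.97 and 6.62 in P/C (-0.79 ± 0.21, adjusted p = 0.136). CASP8, the initiator caspase of death receptors, read 6.62, 6.70 and 6.70 in C, with 5.04 on P/C replicate 1 and 6.06 on replicate 3 (-1.13 ± 0.30, adjusted p = 0.141). CASP8 is an example of a gene further from C on replicate 1. Over 8 tested genes of death receptors and caspases the median was -0.08, and over 7 tested BCL2 family genes 0.01, with BNIP3L at 6.37, 5.63 and 6.46 in C and 6.70 and 7.51 in P/C and BID at 8.07, 7.42 and 7.39, then 7.10 and 7.22.

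Targets of growth signalling had a median of -0.07 over 11 tested genes of the ERK list. EGFR, the epidermal growth factor receptor, read 7.07, 7.51 and 8.44 in C and 9.37 and 8.97 in P/C (1.49 ± 0.42, adjusted p = 0.147), with untreated cells at 9.12 and 8.18. DUSP1, a phosphatase that turns MAP kinases off, read 8.06, 8.94 and 8.94, then 9.05 and 9.61. MYC read 11.52, 11.25 and 11.24, then 11.69 and 11.99, while NOP16, a nucleolar protein listed with it under ribosome biogenesis, read 8.28, 8.28 and 7.83, then 7.13 and 7.42. The 13 tested ribosome biogenesis genes had a median of -0.09, the 21 tested translation initiation factors -0.04, with EIF3A at 8.91, 8.78 and 8.99 in C and 9.39 and 9.86 in P/C, and the only tested ribosomal protein gene 0.001.

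Protein and RNA handling genes had medians slightly below 0 and no call. Of 16 tested proteasome subunits 15 were negative (median -0.26), where 1116 of all 2203 tested genes were, and the list lay at -0.15 and -0.34 on the P/C arrays and from -0.16 to 0.10 on the C arrays. The 12 tested heat shock and chaperone genes had a median of -0.14 with 8 negative, and lay at 0.011 on P/C replicate 1 and -0.31 on replicate 3. Among them HSPE1, the mitochondrial chaperonin partner, read 10.71, 10.01 and 9.64 in C and 9.57 and 9.33 in P/C. Of 21 tested RNA-binding and splicing proteins 15 were negative (median -0.21), and this list lay at 0.015 on P/C replicate 1 and -0.25 on replicate 3. For the chaperones and the RNA-binding proteins the lower median was thus seen on replicate 3 and not on replicate 1. CIRBP, the cold-inducible RNA-binding protein, went the other way, at 6.83, 5.58 and 5.94 in C, then 6.49 and 8.22, and SRSF6, a splicing factor, read 7.95, 7.56 and 7.72, then 7.69 and 6.02. All 4 tested histone genes were negative (median -0.55), with H2AX, the variant phosphorylated at DNA breaks, at 8.78, 8.56 and 8.38, then 8.34 and 7.03. The 15 tested genes of DNA damage sensing and repair had a median of -0.06, 6 positive and 9 negative.

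The remaining lists had no call and medians near 0 with all arrays, though some moved with P/C replicate 1. The median was 0.12 for 12 tested NRF2, glutathione and metallothionein genes. On P/C replicate 1 their median was -0.088 and none was above all C arrays, where 24.7% of all tested probe sets were. On replicate 3 it was 0.57 and 9 were above all C arrays, where 33.8% of all were. This list had a median of 0.68 without both doubted arrays. It holds GCLC, the glutathione synthesis enzyme, at 6.44, 5.35 and 6.08 in C, then 6.06 and 7.43. Medians were 0.03 for 15 tested glycolysis and hypoxia genes, -0.05 for 21 oxidative phosphorylation subunits, 0.09 for 6 CDK inhibitors and G1 regulators, -0.06 for 6 interferon-stimulated genes and -0.15 for 3 genes of prostaglandin synthesis. Of the copper and platinum transporters 2 were tested, with a median of -0.41 on P/C replicate 1 and 0.41 on replicate 3. Without both doubted arrays it was 0.54. SLC31A1, the copper importer that also takes up cisplatin, read 6.90, 6.83 and 6.63 in C, 6.12 on P/C replicate 1 and 6.61 on replicate 3. KRT8, the only tested mesothelial marker, differed by -0.05, and no leukocyte or stromal marker was bright enough to test. The targets of piroxicam itself were below the filter: PTGS2 read 1.90, 2.29 and 1.84 in C and 2.03 and 2.24 in P/C, and the highest of the 3 PTGS1 probe sets on these arrays read 2.35.

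The effect of piroxicam on top of cisplatin was then set beside its effect in cells without cisplatin, which rests on other arrays. P against untreated cells at 24 h called 445 probe sets (14.6%), 96 higher (3.14%) and 349 lower (11.4%), or 172 higher and 223 lower after centring each array on its median. Across the 3057 probe sets the log2 differences of these comparisons correlated at r = 0.66 (Spearman 0.63), and 72.1% had the same sign. This is a description over genes, which are not independent. Of the 96 probe sets higher with P, 92 were higher in P/C than in C and 42 had both P/C arrays above all C arrays (43.8%, against 12.9% of all). Of the 349 lower with P, 328 were lower in P/C and 112 had both P/C arrays below all C arrays (32.1%, against 14.3%). Their median log2 differences were 0.62 and -0.48 in P/C against C, beside 1.30 and -1.33 in P against untreated, the contrast that chose them.

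By array, the split between the P/C replicates was wide. Of the 349 probe sets lower with P, 292 (83.7%) were below all C arrays on P/C replicate 3, where 32.2% of all probe sets were, and 124 (35.5%) on replicate 1, where 29.0% of all were. Of the 96 higher with P, 85 (88.5%) were above all C arrays on replicate 3 and 48 on replicate 1, against 33.8% and 24.7%. Since P/C replicate 1 was doubted on these same probe sets, their overlap with the calls made without it would restate that choice, and no count of it is given.

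**Figure D4:**
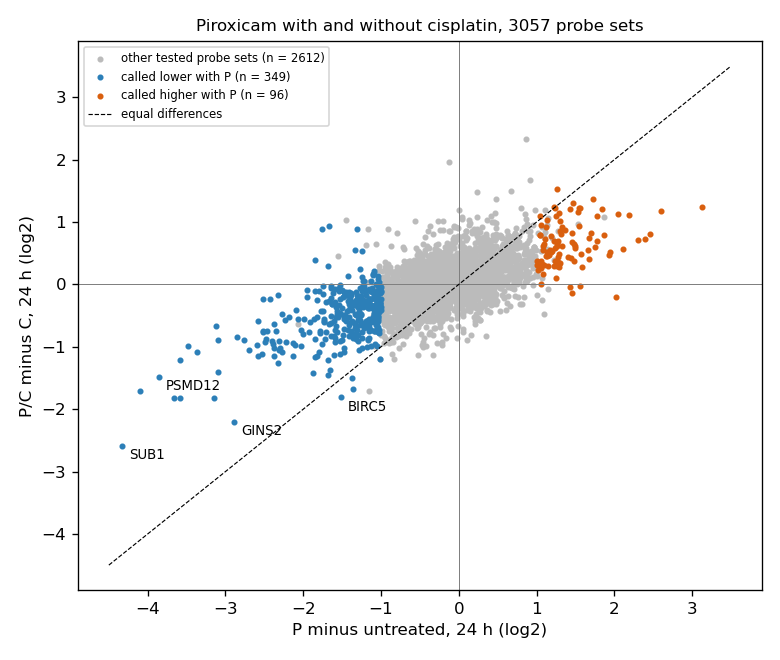
Each point is 1 of 3057 probe sets, with the log2 difference of P minus untreated at 24 h on the horizontal axis and of P/C minus C at 24 h on the vertical axis. Coloured points passed the test in P against untreated, 96 higher and 349 lower, and the dashed line marks equal differences. Most coloured points lie on the same side of 0 on both axes and nearer 0 on the vertical axis.

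The difference between these piroxicam effects was tested directly, and no probe set passed (smallest adjusted p = 0.136 by limma, 426 of 3057, 13.9%, at an unadjusted p under 0.05). In PSMD12 the gap was 2.38 log2 units, between -3.86 with P alone and -1.48 with cisplatin present, on the dimmer of its probe sets. On the brighter one these differences were -0.74 and -0.086. Other named genes had gaps of like size, among them RGS4 (2.46), GINS1 (2.38) and SRSF6 (2.21). Without both doubted arrays, and so with 1 P/C array, the gap was 1.87 on the dimmer PSMD12 probe set and -3.88 in ATF3. It was 2.15 in STK39, a stress kinase named after its value was seen. ATF3 read 4.67 and 4.01 in untreated cells and 6.79 on average with P. Without P/C replicate 3, the array that carries the piroxicam changes, the same test called 153 probe sets, 122 of them with a more positive piroxicam difference in the presence of cisplatin.

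At 8 h, P/C against C called 10 probe sets (0.327%), 3 higher and 7 lower. DDIT4, an inhibitor of mTORC1 induced by stress, was 4.14 higher on the log2 scale at 8 h (adjusted p = 0.000371). At 24 h it read 8.61, 7.66 and 8.14 in C and 7.70 and 8.77 in P/C, a difference of 0.10 ± 0.42 (adjusted p = 0.941). RGS4, which shortens signalling by G proteins, differed by -3.54 at 8 h (adjusted p = 0.00462), and at 24 h it read 5.57, 5.28 and 5.15 in C, 5.40 on P/C replicate 1 and 3.94 on replicate 3. All 10 kept their sign at 24 h, at medians of 0.93 for the 3 higher and -0.35 for the 7 lower, and none was called. On P/C replicate 1 alone these medians were 0.45 and -0.049. Without that array they were 1.30 and -1.03. Across all tested probe sets the 8 h and 24 h differences correlated at r = 0.40, with 63.0% of the same sign.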

How the data were processed

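Total RNA of MSTO-211H cells was hybridised to HGU133A arrays. The deposited values are log2 signals that the authors made with GCRMA, with no version given in the sources used here, and per the study's methods outlying arrays had been removed before. The scanner files were not used here, and array depth has no count; the number of arrays limits the precision. Groups come from the sample titles.

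From the log2 values, 68 control probe sets were left out and 3057 of 22283 probe sets were kept, those reaching a signal of 100 on 25% or more of the 18 arrays and an interquartile range of 0.25 or more. limma (3.58.1, R 4.3.3) fitted all 18 arrays together, the 8 groups each with a mean of its own, with Benjamini-Hochberg adjustment. Calls need an adjusted p no higher than 0.05 and a log2 difference no smaller than 1 in size, the study's own thresholds. Errors are standard errors of that fit. The test was first run on simulated data with independent noise on each array. Those data held no shift of a whole array, so they do not cover arrays like the doubted ones. The p-values cover the spread between these arrays. A gene is represented in lists by its tested probe set with the highest mean.

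Gene symbols come from the platform annotation updated through RefSeq: 19071 probe sets have 1 symbol, 1043 several and 2169 none, and those with several are unnamed. Named genes are those called, filled to 12 per direction with the smallest p whose arrays do not overlap, up to 4 members of each of 32 lists with the largest difference, and CDKN1A, PTGS1, PTGS2 and DDIT4. The members, lists and alternatives were chosen with earlier results of these data known. Replicates 1 and 3 of C and P/C were treated as sharing only a number. The deviations of same-numbered arrays from their group means correlated at -0.22 and -0.18. P/C at 24 h holds only replicates 1 and 3, so their deviations mirror each other. These correlations therefore cannot tell whether same-numbered arrays come from the same culture day. Figures were drawn with matplotlib (3.10.9).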

Additional observations from a re-analysis of the deposited data

How the results depend on the processing

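The count of 3 probe sets called in P/C against C at 24 h rested on few arrays. It was 0 without a filter on low values, 0 with array weights, 0 with only the arrays of the comparison and 0 with only those of the same time. It was 7 after quantile normalization, 5 after median centring, 0 to 193 when 1 array was left out and 251 with both doubted arrays left out. With the replicate number as a block it was 3, with 2 of the same probe sets. The test of the difference of the piroxicam effects called 0 with the block, 1 with array weights, 0 to 153 with 1 array left out and 3 without both doubted arrays. P/C against C at 8 h called 20 without a filter, 6 at a signal of at least 200, 20 with only the arrays of the same time, 2 to 13 with 1 array left out and 13 with the block. P against untreated called 783 without a filter, 282 at a signal of at least 200, 250 to 467 with 1 array left out and 393 with the block.

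The median over the probe sets called higher with P ran from 0.28 to 1.04 with 1 array left out and was 1.01 without both doubted arrays. Over those called lower it ran from -0.81 to -0.12. Of 67 named genes, 56 kept their direction under every alternative run. For genes named because their P/C and C arrays do not overlap, leaving out arrays of the comparison could not turn the sign. The count is therefore set in part by how the genes were chosen. With 1 array left out, ATF3 ran from -0.57 to 1.67, TRIB3 from -0.42 to 1.85, PHGDH from -0.060 to 1.64, PSAT1 from -0.25 to 0.95, CXCL3 from -0.32 to 2.79, IRS2 from -0.40 to 1.86, IDI1 from -2.28 to 0.18, RGS4 from -1.39 to 0.068, TXNIP from -0.14 to 0.98, CDKN1A from -0.058 to 1.34 and DDIT4 from -0.43 to 0.63, in log2 units. The turn came without C replicate 1 in CDKN1A and TXNIP, without C replicate 1 or P/C replicate 1 in ATF3, without C replicate 2 or P/C replicate 3 in DDIT4 and without P/C replicate 3 in the others. Without both doubted arrays ATF3 was -1.43, TXNIP -0.42 and CDKN1A -0.33. ATF3 was also -0.14 with array weights and DDIT4 -0.16 with the block. Of 30 lists with a tested gene, 25 had a median that moved by more than the spread between arrays under some alternative. The medians of the mitosis, DNA replication and stress response lists kept their sign in all alternatives run, from -1.11 to -0.22, -0.94 to -0.19 and 0.099 to 0.97, and that of the sterol list ran from -0.85 to 0.11. The cause of these changes was not tested.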
